A study of Mus musculus with 12 samples.

Results

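Antisense and intronic transcripts that were assembled from liver RNA reads without a matching known transcript were described in mice fed a normal diet or a high-fat diet. An assembled transcript was taken as a member when the deposited table tied it to a known mouse transcript, its host, with a Cufflinks class code of x, s, i or p. By this rule 840 of the 152210 transcripts of the table were members, at 498 host genes. Code x (789 members) marks overlap of an exon of the host on the opposite strand, code s (3) an intron that overlaps an intron of the host on the opposite strand, code i (47) a transcript that lies wholly in an intron of the host, and code p (1) a possible run-on just beyond the host.

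The livers came from male C57BL/6J mice of 21 weeks of age that had been on their diets for 16 weeks, from 5 weeks of age. The diets compared, with 3 mice each, were normal (ND), rich in fat (HFD), HFD with 1.5% (w/w) of an ethanol extract of chrysanthemum leaf (CLE), and HFD with 0.003% (w/w) luteolin (LU), a flavone. The ND mice received neither supplement, and all CLE and LU mice also ate the high-fat diet, so CLE and LU against ND hold the diet and the supplement together. The 3 livers of a group were picked by the study as representative of larger groups, and HFD and ND were each the control of more than 1 comparison.

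Antisense transcripts are made from the strand opposite a gene. Many start at promoters that fire in both directions, from enhancers inside the gene, or beyond its end, and some are known to alter transcription, splicing or stability of the sense RNA. Most are spliced poorly and are present at far lower levels than the messenger RNA they overlap. RNA made from introns can be the remnant of unspliced precursor RNA or an independent transcript. The library kit named in the labels does not mark strand, so the strand of an assembled transcript rests on its splice junctions, and reads in exons that overlap the host cannot be told apart from host reads by strand.

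All 784 x members whose host gene was in the GENCODE M21 annotation lay on the strand opposite their host, which code x requires. Of these 421 lay inside the host gene, 167 covered its start, 155 covered its end and 41 covered it whole. The own start of the member fell inside the host in 588 and beyond the host end in 196, and in 47 it was within 1000 bases of the host start. No annotated gene lay on the member's own strand for 541 of the 789 x members, 213 overlapped noncoding genes there, and 35 overlapped a protein-coding gene. The hosts of 809 of the 840 members were protein-coding. Members of 1 host on 1 strand with overlapping spans made up 518 loci, of which 357 held a single member, so members of a locus share reads and are not independent. The table files 88 members under another gene name than that of the host, or under none.

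4 promoters are shown because members with a high level or a difference between the diets reach across them or begin in them. They are RefSeq promoters of 300 bases on GRCm38.p6, from 250 bases before the gene start to 50 after it, written 5′ to 3′ on the strand of the gene, with the bases inside the span of the assembled transcript in capitals. Igfbp1 x6 (member x6 of the host Igfbp1) runs against the gene and ends 132 bases before its start, within chr11:7197537-7197836 (+ strand).
Igfbp1 promoter: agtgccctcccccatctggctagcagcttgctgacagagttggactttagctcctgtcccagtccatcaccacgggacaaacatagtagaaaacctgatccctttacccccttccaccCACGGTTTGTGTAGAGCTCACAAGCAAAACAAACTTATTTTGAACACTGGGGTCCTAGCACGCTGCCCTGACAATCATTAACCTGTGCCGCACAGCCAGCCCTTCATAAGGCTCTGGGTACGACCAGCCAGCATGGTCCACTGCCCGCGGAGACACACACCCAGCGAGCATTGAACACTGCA
Gstz1 x8 covers all of the downstream of the 2 promoters that RefSeq gives Gstz1, at chr12:87157353-87157652 (+ strand).
Gstz1 downstream promoter: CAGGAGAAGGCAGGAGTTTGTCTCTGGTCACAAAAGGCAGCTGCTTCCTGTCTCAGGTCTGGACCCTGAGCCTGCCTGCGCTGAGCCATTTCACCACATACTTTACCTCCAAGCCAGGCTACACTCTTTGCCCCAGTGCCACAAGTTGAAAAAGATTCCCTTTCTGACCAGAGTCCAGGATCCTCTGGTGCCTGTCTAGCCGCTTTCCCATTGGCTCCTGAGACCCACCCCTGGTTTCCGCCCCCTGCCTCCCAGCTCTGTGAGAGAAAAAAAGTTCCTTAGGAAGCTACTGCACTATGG
Cpsf2 x4 begins 701 bases after the start of Cpsf2 on the opposite strand and covers its whole promoter, at chr12:101975724-101976023 (+ strand).
Cpsf2 promoter: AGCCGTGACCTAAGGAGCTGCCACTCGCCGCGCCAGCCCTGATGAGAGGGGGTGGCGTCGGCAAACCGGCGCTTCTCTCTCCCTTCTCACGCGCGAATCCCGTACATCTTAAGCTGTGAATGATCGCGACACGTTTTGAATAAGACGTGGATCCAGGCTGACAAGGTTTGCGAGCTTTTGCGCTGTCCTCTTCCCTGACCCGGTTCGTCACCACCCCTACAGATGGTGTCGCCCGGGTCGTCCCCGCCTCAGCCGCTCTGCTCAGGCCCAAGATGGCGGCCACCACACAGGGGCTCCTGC
Prss12 x1 begins 8 bases after the annotated start of Snhg8, a noncoding gene on its own strand, at chr3:123508287-123508586 (- strand).
Snhg8 promoter: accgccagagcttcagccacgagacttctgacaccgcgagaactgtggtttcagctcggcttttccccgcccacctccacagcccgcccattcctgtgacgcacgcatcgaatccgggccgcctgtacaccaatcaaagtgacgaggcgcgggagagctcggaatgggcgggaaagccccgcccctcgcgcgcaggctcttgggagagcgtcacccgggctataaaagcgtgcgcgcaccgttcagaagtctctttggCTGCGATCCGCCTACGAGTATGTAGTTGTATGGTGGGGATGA
The Igfbp1 promoter holds the motif CAAAACA, the core of the insulin response sequence known from this gene, 108 bases before the start and inside the antisense span. CAAAACA or its reverse complement occurs in 2064 of 32851 promoters of the same length (6.3%). The motif TATAAA stands 30 bases before the Snhg8 start and occurs, on either strand, in 4473 promoters (13.6%). TATAAA was not found in the Igfbp1, Gstz1 and Cpsf2 windows, and CAAAACA was not found in the last 3. Of the 600 x members whose host had a RefSeq promoter, 189 (31.5%) overlapped such a window.

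Levels were low for most members. They are given in FPKM (fragment numbers per transcript length and library size). Whether this scale sets short assembled transcripts beside longer host transcripts without bias was not tested. The median over members of the mean of the 12 livers was 0.219 FPKM for code x, 0.258 FPKM for code i and 1.30 FPKM for code s. Below 0.01 FPKM were 440 of the 840 members in at least 1 liver and 124 in every liver. A mean of at least 0.5 FPKM, the level required for the tests, was reached by 295 members (285 x, 8 i and 2 s, at 239 hosts), which is 35.1% of the members, as against 23.3% of all rows of the table. The median level of these 295 was 8.93% of the summed FPKM of the host gene, and 24 stood above their host.

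**Figure D1:**
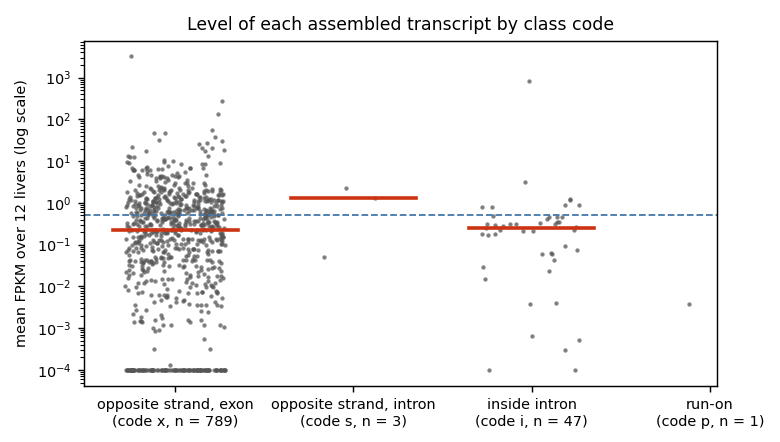
Mean FPKM over the 12 livers (vertical axis, log scale) for each of the 840 members by class code, with means under 0.0001 drawn at 0.0001. Red bars are medians, and the dashed line is the 0.5 FPKM required for testing, which 295 members reached.

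The highest level was that of Cmss1 x1, a span of 572 bases (chr16:57391111-57391682, + strand) inside Cmss1, a gene named for a role in the small ribosomal subunit. It overlaps the protein-coding gene Filip1l on its own strand. Its FPKM was 2439, 2045 and 2078 in ND, 4185, 2938 and 1989 in HFD, 2566, 5866 and 3206 in CLE and 4258, 4332 and 2725 in LU livers, against 2.99 to 5.04 for the summed host. The groups overlapped in HFD and ND, and CLE mouse 4 stood highest. The intronic Jarid2 i15 (chr13:44869571-44870028, 458 bases), in the gene of a cofactor of Polycomb repressive complex 2, was next. It had 556, 549 and 463 FPKM in ND, 940, 698 and 714 in HFD, 731, 1809 and 897 in CLE and 1064, 1032 and 658 in LU livers, with the host at 1.77 to 3.63. All CLE livers lay above all ND livers, and the difference missed the threshold (1.02 ± 0.31 SE on the log2(FPKM + 1) scale, limma adjusted p = 0.0522). These 2 members made up 62.8% to 79.8% of the summed FPKM of all members in a liver, and CLE mouse 4, the library with the highest total over all rows, was the highest for both. Their spans are short (572 and 458 bases), and how far this raised their FPKM above that of their hosts was not tested.

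Of the 5 highest x members 3 lie over noncoding genes of their own strand. Cpsf2 x4 (chr12:101968098-101976675, - strand) covers the start of Cpsf2, a subunit of the factor that cleaves and polyadenylates messenger RNA, and overlaps Ndufb1-ps, with 190 to 366 FPKM over the 12 livers and the host at 3.59 to 6.2. Prss12 x1 (chr3:123482865-123508328, - strand) holds the small nucleolar RNA host gene Snhg8 with Snora24 on its strand and had 59.3 to 192 FPKM, while Prss12, which encodes neurotrypsin, stayed at 0.0526 or below. Gm10718 x1 (chr9:3017983-3034958, - strand), over Gm26870, was listed at 0 in all 3 ND livers, in HFD mouse 15 and in CLE mice 2 and 11, and had 30.2 to 235 FPKM in the other 6 livers. Slc27a2 x6 (chr2:126575392-126587728, - strand) has no annotated gene on its strand and lies inside Slc27a2, a fatty acid transport protein that activates very long chain fatty acids. It had 44.5, 47.8 and 55.6 FPKM in ND, 34.4, 28.1 and 38.4 in HFD, 52.0, 77.8 and 41.3 in CLE and 51.9, 53.0 and 55.2 in LU livers. Each HFD liver lay below each liver of the other groups, and none of these differences passed (adjusted p = 0.277 against ND, 0.0814 for CLE and 0.118 for LU against HFD).

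Apart from Jarid2 i15, the s, i and p members had means of at most 3.11 FPKM over the 12 livers. Of the s members, Hprt s6 ranged from 0.969 to 2.09 FPKM and Evpl s1 stayed at 0.088 or below. Rapgef4 i5, in the gene of a cyclic-AMP-activated exchange factor, varied between livers from 0.435 to 10.7 FPKM. Nectin1 i5 ranged from 0.844 to 2.0, Bhmt2 i2 from 0.555 to 1.61 and Tex2 i11 from 0.502 to 1.36 FPKM. The only p member, Apol6 p9, reached 0.0145 FPKM at most.

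Libraries were checked before the groups were compared. The correlation of log2 values over tested transcripts between livers of a group was 0.84 to 0.94. The markers of 7 liver cell types were summed by liver. Of hepatocyte markers 7 of 8 were found. Their sum without albumin was 14610 to 23370 FPKM, and with it reached 39200 in LU mouse 3. Albumin, which defines hepatocytes, was listed at 0 in the other 11 livers, so a listed 0 may stand for an estimate that failed. Summed markers of Kupffer cells or macrophages (7 of 7 found) lay at 102.9 to 115.6 FPKM in ND, 148.4 to 222.2 in HFD, 146.9 to 184.6 in CLE and 111.6 to 190.4 in LU livers. Stellate cell markers (6 of 6) ranged from 72.6 to 102.6 in ND and from 127.3 to 201.3 FPKM in the other groups, endothelial markers (5 of 5) from 63.5 to 74.8 and from 80.1 to 111.1, and cholangiocyte markers (5 of 5) from 18.4 to 41.3 and from 36.3 to 101.4. The cholangiocyte sum was almost all Spp1, with means of 28.07 FPKM in ND, 46.04 in HFD, 56.45 in CLE and 62.31 in LU. Each of the other cholangiocyte markers had group means of at most 1.56 FPKM. Lymphocyte markers (5 of 5) stood at 5.24 to 6.28 FPKM in ND, 6.70 to 9.32 in HFD, 9.06 to 9.6 in CLE and 5.64 to 12.6 in LU livers. Of the 3 adipocyte markers, Plin1 and Lep were below 0.1 on average, and the sum was highest in LU livers (0.824 to 1.26). In bulk liver, a difference in the number of cells of a type and in RNA per cell cannot be told apart. Over 21130 known transcripts, the deviation of each library from the mean of all libraries had a Spearman correlation with GC content of -0.19 to -0.06 in the ND and HFD and 0.08 to 0.24 in the CLE and LU libraries, which cannot be told apart from the supplements.

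Between HFD and ND livers, 6 members passed an adjusted p of 0.05 (3 higher and 3 lower in HFD), as against 1.54% of all rows tested (1.07% higher and 0.469% lower), and all 6 were antisense members of code x. The 6 are 2.03% of the 295 tested, of which 285 were of code x. The median log2 difference was 0.06 over the members and 0.08 over all rows. Among the 6, the antisense transcript of Igfbp1 fell most, together with its host, and antisense transcripts of Csrp3 and Wrnip1 fell as well. Those of Spatc1, Slc38a11 and Coq10a rose.

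Igfbp1 encodes a secreted binding protein of insulin-like growth factors whose transcription in liver is suppressed by insulin. Igfbp1 x6 (chr11:7197655-7201979, - strand) had 8.62, 3.52 and 9.32 FPKM in ND, 0.364, 1.24 and 0.934 in HFD, 0.457, 0.190 and 0.314 in CLE and 0.452, under 0.01 and 0.746 in LU livers. Every ND liver lay above every liver on a high-fat diet, and the 3 high-fat groups overlapped. The log2 difference from ND was -2.08 ± 0.33 SE in HFD (limma adjusted p = 0.0132), -2.54 ± 0.33 in CLE (0.00328) and -2.49 ± 0.33 in LU (0.0033). The summed Igfbp1 host was at 212, 68.0 and 272 FPKM in ND and at 27.0 to 62.4 FPKM in the other livers. Its log2 difference was -2.204 in HFD, -1.97 in CLE and -1.70 in LU (adjusted p = 0.00625, 0.0087 and 0.0228 in a second fit, of gene sums and members together). ND mouse 3 was the lowest ND liver for both. In CLE and LU against ND the member passed with each liver left out in turn, and in HFD against ND it did not pass without ND mouse 2, ND mouse 4 or HFD mouse 12 (adjusted p = 0.0612, 0.0559 and 0.0609).

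**Figure D2:**
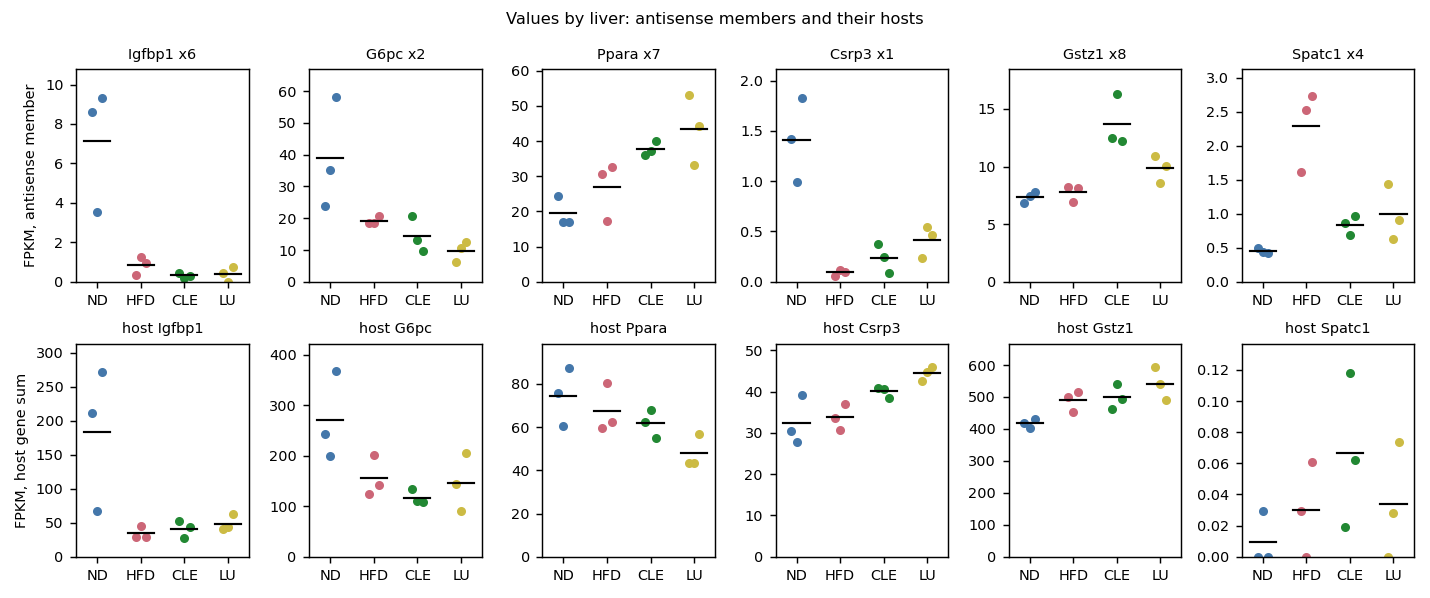
FPKM in each liver (points, 3 per group, with the group mean as a bar) for 6 antisense members above and the summed host gene below, with axes from 0. Igfbp1 and G6pc members were highest in ND livers along with their hosts, and Spatc1 x4 was highest in HFD livers with its host near 0. The Ppara member had its highest mean in LU livers, which overlapped the CLE livers, and its host had its lowest mean in LU.

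Csrp3 encodes a LIM protein known from the sarcomere. Csrp3 x1 (chr7:48842765-48858898, + strand) covers the start of the gene and had 1.42, 0.987 and 1.83 FPKM in ND, 0.0613, 0.121 and 0.0999 in HFD, 0.376, 0.245 and 0.0834 in CLE and 0.237, 0.541 and 0.465 in LU livers. All ND livers were above all others. The mean of Csrp3 x1 over all livers was 0.539 FPKM, just above the 0.5 required for the tests. The ND livers (mean 1.41) added most to it. The log2 difference from ND was -1.13 ± 0.18 SE in HFD, -0.96 ± 0.18 in CLE and -0.76 ± 0.18 in LU (limma adjusted p = 0.0126, 0.0116 and 0.0281). The host was not lower: its log2 difference was 0.06 in HFD (adjusted p = 0.797), 0.31 in CLE (0.0785) and 0.45 in LU (0.0306). Wrnip1 encodes an ATPase that acts at stalled replication forks. Wrnip1 x1 (chr13:32815315-32821975, - strand) had 2.36, 2.0 and 2.44 FPKM in ND and 1.21, 0.917 and 0.959 in HFD livers, a log2 difference of -0.69 ± 0.14 SE (adjusted p = 0.0449). Its host fell by 0.91 on the log2 scale in the same livers (adjusted p = 0.00111).

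Spatc1, a gene of a centrosomal protein known from testis, was itself at 0.118 FPKM or below. Spatc1 x4 (chr15:76267324-76269827, - strand) overlaps Mirt2, a long noncoding RNA gene of its own strand. It had 0.495, 0.443 and 0.426 FPKM in ND, 1.62, 2.52 and 2.73 in HFD, 0.860, 0.691 and 0.975 in CLE and 1.44, 0.636 and 0.910 in LU livers. All HFD livers were above all others, and all CLE and LU livers were above all ND livers. It rose by 1.16 ± 0.19 SE on the log2 scale from ND to HFD (limma adjusted p = 0.0163) and was lower in CLE than in HFD (-0.82 ± 0.19 SE, adjusted p = 0.0487). The summed markers of macrophages, stellate cells, endothelial cells and lymphocytes were also each higher in every HFD than in every ND liver. Between HFD and CLE livers the macrophage sums overlapped, as given above. The part of any cell type in the result for Spatc1 x4 was not tested.

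Slc38a11 is a member of an amino acid transporter family. The longer of the 2 members named Slc38a11 x1 (chr2:65334325-65339952, + strand) had 0.0964, 0.385 and 0.192 FPKM in ND and 1.32, 1.04 and 1.11 in HFD livers, a log2 difference of 0.82 ± 0.16 SE (adjusted p = 0.0362), with the host at 0.134 FPKM or below. Coq10a encodes a coenzyme Q binding protein of mitochondria. Coq10a x1 (chr10:128364986-128368778, + strand) had 0.334, 0.576 and 0.464 FPKM in ND and 1.72, 1.28 and 1.57 in HFD livers, a log2 difference of 0.79 ± 0.16 SE (adjusted p = 0.0424). Its host was higher by 0.40 (adjusted p = 0.0413). In both members the HFD and ND livers did not overlap, which the rule for naming members required. The test of HFD against ND rested on each of its 6 livers, and 0 to 3 members passed with a liver left out.

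**Figure D3:**
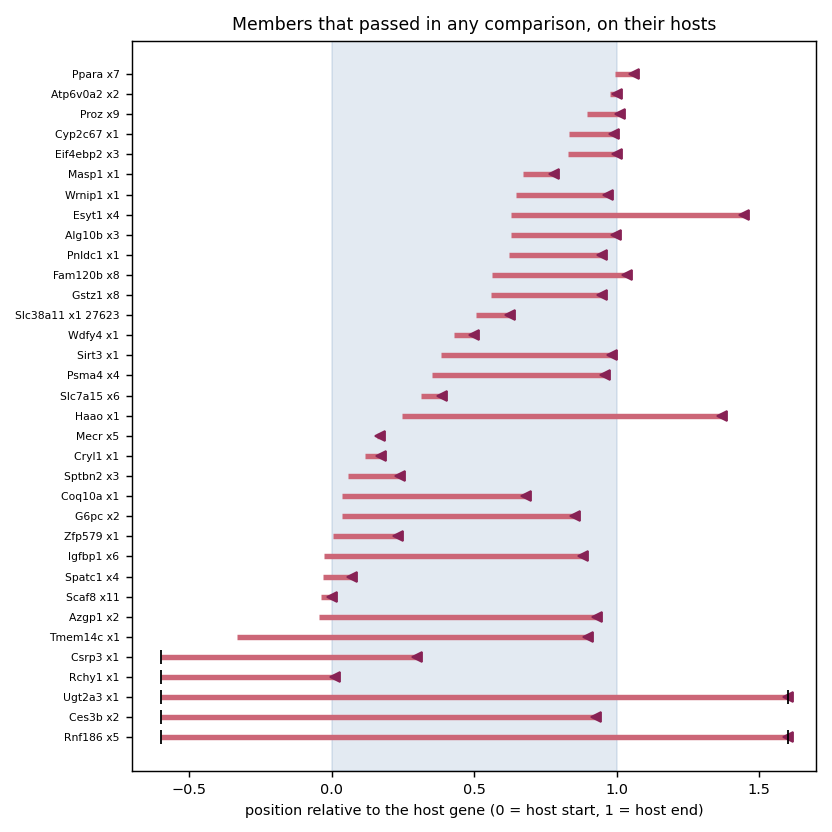
Spans of the 34 members that passed in any of the 6 comparisons, scaled to their host gene (shaded, 0 at its start and 1 at its end) and cut at black ticks. The arrowheads mark the members' own starts and point in their direction of transcription, against the host: 18 lay inside the host, 8 covered its start, 6 its end and 2 the whole gene.

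CLE was set against HFD to ask what the extract changed in mice on the fatty diet. Of the 295 members 5 passed (3 higher and 2 lower in CLE), as against 3.15% of all rows tested (1.53% higher and 1.63% lower). The median log2 difference was 0.15 over the members and 0.04 over all rows. Besides the lower Spatc1 x4, antisense members of Gstz1, Sirt3 and Esyt1 rose and that of Cryl1 fell.

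Gstz1 encodes maleylacetoacetate isomerase, an enzyme of tyrosine breakdown that belongs to the glutathione transferases. Gstz1 x8 (chr12:87156947-87163796, - strand), which the table files under the neighbouring gene Pomt2, had 6.81, 7.47 and 7.80 FPKM in ND, 8.25, 6.95 and 8.12 in HFD, 12.5, 16.3 and 12.3 in CLE and 10.9, 8.62 and 10.1 in LU livers. The CLE livers lay above all others and the ND and HFD livers overlapped. It rose by 0.74 ± 0.15 SE against HFD (limma adjusted p = 0.0334) and 0.80 ± 0.15 against ND (0.0116). The host, at 404 to 595 FPKM, differed between CLE and HFD by 0.03 (adjusted p = 0.887). Sirt3 encodes a mitochondrial deacetylase. Sirt3 x1 (chr7:140863991-140875199, + strand) overlaps Ric8a, a protein-coding gene of its own strand, so reads of both cannot be told apart by strand. It had 0.838, 0.185 and 1.51 FPKM in HFD and 2.64, 5.15 and 2.87 in CLE livers (1.33 ± 0.28 SE, adjusted p = 0.0382). The second member there, Sirt3 x2, had 5.31, 5.41 and 5.86 FPKM in HFD and 5.89, 4.62 and 3.21 in CLE livers.

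Cryl1 encodes a dehydrogenase of the uronate cycle. Cryl1 x1 (chr14:57377205-57383989, + strand) had 4.29, 2.59 and 1.99 FPKM in HFD, and 0.951, 0.794 and, in CLE mouse 4, a listed 0 in CLE livers. The log2 difference was -1.34 ± 0.30 SE (adjusted p = 0.045), and the host was lower by 0.77 without passing (adjusted p = 0.061). Esyt1 encodes a tether between the endoplasmic reticulum and the plasma membrane. Esyt1 x4 (chr10:128502891-128515868, + strand), over the noncoding gene A430046D13Rik, had 0.232, 0.216 and 0.496 FPKM in HFD and 1.49, 1.65 and 1.16 in CLE livers (0.89 ± 0.20 SE, adjusted p = 0.046). Its mean over all livers was 0.679 FPKM, to which the CLE livers (mean 1.43) added most. The overlapping Esyt1 x2 had 0.555, 1.08 and 0.613 FPKM in HFD and 0.603, 1.53 and 1.67 in CLE livers, and the groups overlapped. The number of members that passed moved between 0 and 17 when a liver was left out: it was 17 without CLE mouse 2, and 0 without HFD mouse 15, CLE mouse 4 or CLE mouse 11.

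Between LU and HFD livers 0 members passed by limma, as against 2.35% of all rows tested, and 29 members had an unadjusted p under 0.05, as against 20.4% of all rows. The smallest p-values belonged to Gm7536 x2, Spatc1 x4 and Cyp2a22 x1 (adjusted p = 0.0736, 0.079 and 0.0891). Gm7536 x2 (chr3:23798017-24783732, - strand) overlaps Naaladl2 on its own strand and had 0.812, 1.29 and 0.898 FPKM in HFD and 0.165, 0.283 and 0.454 in LU livers. Cyp2a22 x1 (chr7:26917367-26935701, + strand) had 2.80, 2.24 and 0.797 FPKM in HFD and 0.136, 0.142 and 0.723 in LU livers. Its host Cyp2a22, a cytochrome P450, fell by 1.94 on the log2 scale (adjusted p = 0.00325). The LU and HFD livers did not overlap for any of these 3 members, which were picked by their p-values, so the lack of overlap adds nothing. The mean of Cyp2a22 x1 over all livers was 0.682 FPKM, and it entered the tests through the HFD livers (mean 1.95). That of Gm7536 x2 was 0.566 FPKM, just above the 0.5 required, and the HFD livers (mean 0.999) added most to it.

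Between CLE and LU livers 0 members passed by limma, as against 0.0113% of all rows tested, and 18 had an unadjusted p under 0.05, as against 4.59% of all rows. The smallest p-values were those of Proz x9, Esyt1 x4 and Shmt1 x1 (adjusted p = 0.836, 0.863 and 0.902). Shmt1 encodes the cytosolic serine hydroxymethyltransferase of one-carbon metabolism, and Shmt1 x1 (chr11:60789231-60797334, + strand) had 6.32, 4.93 and 5.25 FPKM in CLE and 3.26, 2.23 and 4.24 in LU livers. The groups did not overlap in this member, which was picked by its p-value, and the log2 difference was 0.64 ± 0.19 SE. The extract and luteolin differ in dose by weight (1.5% against 0.003% of the diet), and the comparison is therefore of these diets only.

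Against ND, 27 members passed in CLE livers (22 higher and 5 lower), as against 12.8% of all rows tested (8.28% higher and 4.53% lower). In LU livers 13 passed (7 higher and 6 lower), as against 8.47% of all rows tested (5.26% higher and 3.21% lower). The shares of the members were 9.15% and 4.41%. The median log2 difference of the members was 0.16 in CLE and 0.08 in LU, and that of all rows 0.14 and 0.10. The split depended on the scaling of the libraries: with median-of-ratios scaling 9 members were higher and 8 lower in CLE, and 5 higher and 9 lower in LU. The host also passed with the same sign for 9 of the 27 members in CLE, G6pc x2 among them, and with the opposite sign for 2. In LU it passed with the same sign for 3 and with the opposite sign for 3 of the 12 members with a tested host, and the hosts of the others did not pass.

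**Figure D4:**
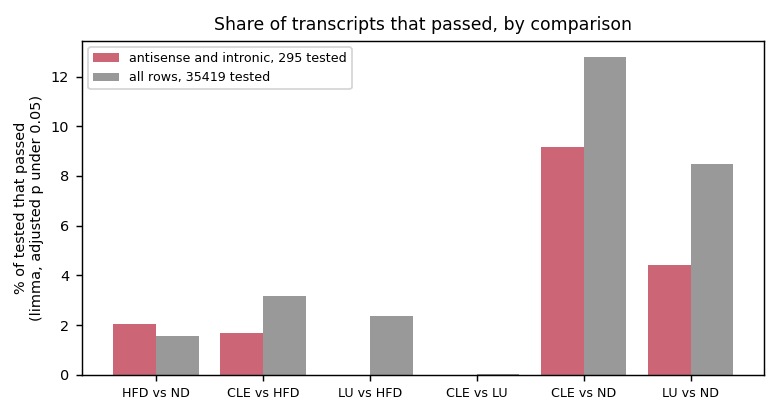
Share of tested transcripts that passed a limma adjusted p of 0.05 in each comparison, for the 295 antisense and intronic members (red) and for all 35419 rows (grey), on an axis from 0. The share of members was 2.03% against 1.54% in HFD vs ND and below that of all rows in the other 5 comparisons.

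G6pc encodes the catalytic subunit of glucose-6-phosphatase, the last step in the release of glucose by the liver, and its transcription is repressed by insulin. G6pc x2 (chr11:101367934-101376380, - strand) lies inside the gene. It had 23.9, 35.2 and 58.2 FPKM in ND, 18.6, 18.5 and 20.7 in HFD, 20.6, 13.2 and 9.84 in CLE and 6.24, 10.8 and 12.5 in LU livers. All ND livers were above all others and all HFD livers above all LU livers. The log2 difference from ND was -1.34 ± 0.34 SE in CLE and -1.84 ± 0.34 in LU (limma adjusted p = 0.033 and 0.0134), and -0.90 ± 0.34 in HFD, which did not pass (0.278). The host differed by -1.16 in CLE (adjusted p = 0.0147), by -0.91 in LU (0.0517) and by -0.77 in HFD (0.105). Without LU mouse 2 the LU result did not pass (adjusted p = 0.0561), and the CLE result was lost without ND mouse 3, ND mouse 4, CLE mouse 4 or CLE mouse 11 (0.0793 to 0.106).

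Ppara encodes the nuclear receptor that switches on fatty acid oxidation in the fasting liver. Ppara x7 (chr15:85802409-85806797, - strand) covers the end of the gene and had 24.4, 17.1 and 16.9 FPKM in ND, 30.7, 17.3 and 32.5 in HFD, 36.2, 37.2 and 39.9 in CLE and 53.1, 33.2 and 44.2 in LU livers. All CLE and LU livers were above all ND and HFD livers. The log2 difference from ND was 0.94 ± 0.25 SE in CLE and 1.12 ± 0.25 in LU (limma adjusted p = 0.0363 and 0.025), and median-of-ratios scaling ended the CLE call (adjusted p = 0.0788). The Ppara host was at 75.9, 60.4 and 87.1 FPKM in ND and 43.4, 43.5 and 56.7 in LU livers. It fell by 0.62 on the log2 scale in LU (adjusted p = 0.0277) and differed by -0.26 in CLE (0.243).

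A member and its host both passed with opposite signs for 2 members in CLE against ND (Eif4ebp2 x3 and Alg10b x3) and for 3 in LU against ND (Ppara x7, Csrp3 x1 and Alg10b x3). Of these, Eif4ebp2 x3 and Alg10b x3 were named after their values were seen. Eif4ebp2 encodes a repressor of cap-dependent translation. Eif4ebp2 x3 (chr10:61428490-61432595, + strand) had 9.45, 8.13 and 5.24 FPKM in ND, 11, 7.95 and 11.8 in HFD, 12.5, 17.8 and 20.3 in CLE and 17.2, 17.2 and 16.7 in LU livers. Every CLE and LU liver lay above every ND and HFD liver. It rose by 1.06 ± 0.23 SE in CLE (limma adjusted p = 0.0191) and 1.10 ± 0.23 in LU (0.0199), while the host differed by -1.01 in CLE (0.00847) and -0.57 in LU (0.0875). Alg10b encodes a glucosyltransferase that builds the precursor of N-glycans. Alg10b x3 (chr15:90230056-90233458, - strand) had 3.17, 2.15 and 0.897 FPKM in ND, 3.90, 4.62 and 5.22 in CLE and 4.71, 4.65 and 4.07 in LU livers. It rose by 0.93 ± 0.24 SE and 0.90 ± 0.24 (adjusted p = 0.0356 and 0.0458), and the host fell by 1.03 and by 0.84 on the log2 scale (0.00692 and 0.0228).

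Mecr encodes the last enzyme of mitochondrial fatty acid synthesis. Mecr x5 (chr4:131847320-131847621, - strand), whose span is 302 bases, had a listed 0, 0.810 and a listed 0 FPKM in ND, 0.776, 1.64 and 3.97 in HFD, 3.62, 8.58 and 4.00 in CLE and 2.97, 8.16 and 2.2 in LU livers. The log2 difference from ND was 2.31 ± 0.49 SE in CLE and 2.002 ± 0.49 in LU (limma adjusted p = 0.0175 and 0.0321). The larger Mecr x1, which holds its span, stayed at 1.36 to 2.09 FPKM in all livers. Atp6v0a2 x2 (chr5:124722049-124724410, - strand), over the antisense gene 4930404A12Rik at the end of a subunit gene of the proton pump of vesicles, had 0.157, 0.237 and 0.794 FPKM in ND, 0.898, 4.83 and 2.94 in CLE and 2.28, 2.52 and 2.31 in LU livers. It rose by 1.36 ± 0.36 SE in CLE and 1.30 ± 0.36 in LU (adjusted p = 0.0346 and 0.0482). Proz x9 (chr8:13074455-13076170, - strand), at the end of the gene of plasma protein Z, was under 0.01 FPKM in all ND and LU livers and had 1.11, 4.37 and 0.448 in CLE livers (1.34 ± 0.38 SE against ND, adjusted p = 0.0437). The mean of Proz x9 over all livers was 0.531 FPKM, just above the 0.5 required for the tests. The group mean was 1.98 in CLE and 0.147 in HFD, so it entered the tests through the CLE livers. Zfp579 x1 (chr7:4993203-4996096, + strand), at a zinc finger gene, had 2.08, 1.67 and 2.33 FPKM in LU livers, and 0.525 in ND mouse 2 with the other ND livers under 0.01 (1.39 ± 0.36 SE, adjusted p = 0.0404). Zfp579 x2, another antisense member of this host, went the other way, with means of 2.56 FPKM in LU and 4.44 in ND livers. The groups did not overlap in Zfp579 x2, and it did not pass (-0.60 ± 0.57 SE, limma adjusted p = 0.532). Whether reads were assigned differently between Zfp579 x1 and x2 was not tested.

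Host genes were also grouped by function. Of the P450 and drug-conjugating genes, 12 were hosts of 17 tested members, of which 4 passed in any comparison: Gstz1 x8, Ces3b x2, Cyp2c67 x1 and Ugt2a3 x1. In any comparison 34 of the 295 members (11.5%) and 16.3% of all rows tested passed, and nothing particular to these genes is read from 4 of 17. Ces3b is a carboxylesterase of the endoplasmic reticulum. Ces3b x2 (chr8:105047758-105093174, - strand) had 1.14, 1.13 and 1.49 FPKM in ND and 2.31, 5.89 and 2.94 in CLE livers, a log2 difference of 0.996 ± 0.26 SE (limma adjusted p = 0.0339), with the host at -0.997 (0.0746). Ces3b x1, another antisense member of this host, stood higher over all livers (mean 20.4 FPKM, against 2.04 for Ces3b x2). Its mean went the other way, from 32.5 FPKM in ND to 3.89 in CLE livers, and it passed in no comparison. Cyp2c67 x1 (chr19:39609296-39615612, + strand), which the table files under the name Pol, had 1.61, 8.04 and 1.27 FPKM in ND and 0.436, 0.180 and 0.475 in CLE livers (-1.47 ± 0.42 SE, adjusted p = 0.046), and the host P450 fell by 0.74 (0.0295). Ugt2a3 encodes a UDP-glucuronosyltransferase. Ugt2a3 x1 (chr5:87300284-87376153, + strand) had 2.45, 7.22 and 3.46 FPKM in ND and 0.600, 0.0976 and 1.22 in LU livers (-1.67 ± 0.45 SE, adjusted p = 0.0448), and the host differed by -0.41 (0.0566). The median log2 difference of the 17 lay between -0.16 and 0.13 over the 6 comparisons.

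The remaining lists held too few tested members for their counts to be set against these shares. Of 4 at genes of secreted plasma proteins, Igfbp1 x6 passed and the others did not, with list medians of -0.74 in HFD, -0.01 in CLE and -0.33 in LU against ND. Of 5 at genes of lipid and sterol metabolism, Ppara x7 passed, and the median was 0.05, 0.16 and 0.12 in the same comparisons. Of 2 at core clock genes, both antisense to Per2, a repressor of the circadian loop, 0 passed in any comparison. Per2 x1 (chr1:91442704-91453088, + strand) ranged from 0.836 to 2.03 FPKM over the livers and differed from ND by -0.07 in HFD, 0.09 in CLE and -0.05 in LU (adjusted p = 0.952, 0.776 and 0.891). The Per2 host differed by 1.21, 1.56 and 1.19 in the same livers (adjusted p = 0.0298, 0.00772 and 0.031).

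The differences of members and hosts were set side by side for the 282 members whose host was also tested. Pearson's correlation across members of the 2 log2 differences was 0.51 for HFD, 0.32 for CLE and 0.32 for LU against ND, 0.27 for CLE and 0.35 for LU against HFD, and 0.17 for CLE against LU. These are descriptions over members that share livers, loci and reads with their hosts, and the 3 comparisons with ND share its 3 livers. The signs were the same for 62.1% of the members in HFD, 64.5% in CLE and 61.0% in LU against ND, for 55.7% in CLE and 56.7% in LU against HFD, and for 56.4% in CLE against LU. Of the members that passed and had a tested host, 3 of 4 in HFD, 17 of 27 in CLE and 7 of 12 in LU against ND had the sign of the host, and 2 of 4 in CLE against HFD.

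**Figure D5:**
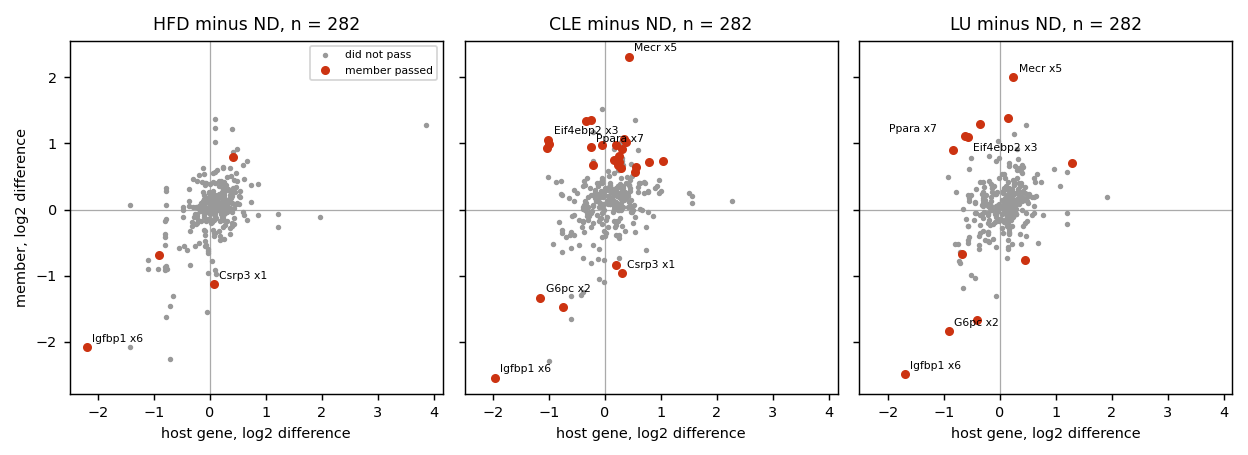
Log2 difference of each member (vertical axis) against that of its summed host gene (horizontal axis) for HFD, CLE and LU minus ND, with 282 members in each panel and those that passed in red. Igfbp1 x6 and G6pc x2 lie at the lower left with their hosts, and Ppara x7 and Eif4ebp2 x3 lie above 0 with hosts below 0.

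Over all comparisons 34 members at 34 hosts passed (11.5%, as against 16.3% of all rows tested), 15 of them in at least 2 comparisons. All 34 were of code x, as were 285 of the 295 tested members. Of the 34, 25 had no annotated gene on their own strand (73.5%, as against 73.0% of the tested x members) and 29 had a mean below 5 FPKM (85.3%, as against 83.4% of the tested members). The known and same-strand transcripts were also summed by gene before the fit. Against ND, 28 members then passed in HFD (9.49% of the 295, as against 11.4% of all 12289 features). In CLE 62 passed (21.0%, as against 26.4%) and in LU 29 (9.83%, as against 14.1%). Against HFD, 15 passed in CLE (5.08%, as against 5.40%) and 1 in LU (0.339%, as against 0.952%). Between CLE and LU 0 passed, as against 0.00814% of all features. The number of calls thus depended on how the rest of the table was counted. The libraries' depth is unknown, since the table holds no counts.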

How the data were processed

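Liver RNA of 12 mice (ND, HFD, CLE and LU, 3 each, grouped by the sample labels, where CLE libraries carry the letters CLL) was sequenced by the authors as paired reads of 100 bases from TruSeq RNA libraries. Per the submitters' processing notes CASAVA 1.8.2, Bowtie2 2.2.3, TopHat2 2.0.12 and Cufflinks 2.2.1 were used. The authors deposited FPKM values per transcript in 1 table. Its header column counts 30 assembled samples, of which 12 have values here. All per-sample columns were used. The methods name DEGES and edgeR normalization factors, and whether the FPKM include them is not given in the sources used here, nor is the build. Of the 78786 known transcripts 67390 had the start and end of GENCODE M21 (GRCm38), which was used for hosts and coordinates. RefSeq promoters were matched by symbol.

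Values of log2(FPKM + 1) of the 35419 rows with a mean of at least 0.5 FPKM were fitted with limma 3.58.1 (R 4.3.3), with a variance trend and 1 coefficient per group, and p-values were adjusted by Benjamini-Hochberg over all rows. The mean was taken over all livers, so a low transcript could enter the tests through the 1 group where it was high. All tests were two-sided, and differences of low transcripts are understated on this scale. The script was tested on simulated data. The labels name no batch. Alternatives were another pseudocount, other filters, scalings and fits, and leaving out each liver. Members and lists were chosen with earlier results of these data known. Named were the 5 highest members of each class code, the 6 largest differences per comparison among members that passed without overlap of the groups (where 0 passed, the 3 smallest p-values), and members that passed at listed hosts. Sirt3 x2, Esyt1 x2, Mecr x1, Per2 x1, Eif4ebp2 x3, Alg10b x3, Zfp579 x2 and Ces3b x1 were chosen for naming once their values were known. A member of code s is not reported here. Sequences of the assembled transcripts were not analysed here.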

Additional observations from a re-analysis of the deposited data

How the results depend on the processing

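Of the values of single named members, under the alternatives, 308 kept direction and side of the threshold, 223 kept the direction and no longer passed, 2 passed anew, and 0 reversed. In order of HFD vs ND, CLE vs HFD, LU vs HFD, CLE vs ND and LU vs ND, with 6, 5, 0, 27 and 13 members reported, the fit of gene sums with members gave 28, 15, 1, 62 and 29, and members summed by locus with gene sums, added after seeing the data, gave 28, 14, 3, 55 and 29 of 261 loci. A fit of the 2 groups alone gave 2, 0, 1, 2 and 17. A mean of at least 5 FPKM left 49 members and gave 0, 2, 0, 6 and 4. Without a filter on low values CLE vs HFD gave 1, CLE vs ND 9 and LU vs ND 4, and with a pseudocount of 0.1 CLE vs HFD gave 1. Median-of-ratios scaling gave 17 in CLE vs ND. CLE vs LU stayed at 0 in all of these. The cause was not tested. The share of higher calls over all rows fell with this scaling from 69.5% to 55.2% in HFD vs ND, from 64.6% to 41.1% in CLE vs ND and from 62.1% to 45.9% in LU vs ND, with the median of all rows in CLE vs ND moving from 0.14 to 0.02.

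With 1 liver left out the count ranged from 0 to 3 in HFD vs ND, 0 to 17 in CLE vs HFD, 0 to 1 in LU vs HFD, 0 to 0 in CLE vs LU, 6 to 39 in CLE vs ND and 1 to 8 in LU vs ND. HFD vs ND gave 0, 2 and 0 without ND mice 2, 3 and 4 and 1, 2 and 3 without HFD mice 12, 15 and 18. CLE vs HFD gave 1, 0 and 2 without these HFD mice and 17, 0 and 0 without CLE mice 2, 4 and 11. LU vs HFD gave 1 without HFD mouse 18 and 1 without LU mouse 8. CLE vs ND gave 12, 7 and 9 without the ND mice and 39, 6 and 10 without the CLE mice, and LU vs ND gave 8, 5 and 2 without the ND mice and 1, 3 and 7 without LU mice 2, 3 and 8.

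With a replicate block 0 members passed in CLE vs ND and 0 in LU vs ND. That fit has almost as many coefficients as livers, so few calls could be expected and these counts decide nothing. Deviations of livers with the same number had correlations of -0.15 to 0.10 over 5 pairs, too few to tell whether such livers share a batch. HFD shares no number with the other groups.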
